A study of Arabidopsis thaliana with 33 samples.

Results

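JAZ genes encode the repressors of jasmonate signalling, and open chromatin was described here at 10 of them, JAZ1 (AT1G19180), JAZ2 (AT1G74950), JAZ3 (AT3G17860), JAZ5 (AT1G17380), JAZ6 (AT1G72450), JAZ7 (AT2G34600), JAZ8 (AT1G30135), JAZ9 (AT1G70700), JAZ10 (AT5G13220) and JAZ12 (AT5G20900), out of 27444 protein-coding genes of chromosomes 1 to 5. The gene list was given by locus, and all 10 loci were found in the RefSeq gene table, where JAZ2 is named TIFY10B and JAZ9 is named TIFY7. A peak was assigned to a gene where its summit, the position of highest signal, lay in the gene or in the 1000 bp on either side. This placed 281 peaks of 10 lists at the 10 genes, 117 from DNase-seq and 164 from FAIRE-seq. The seedlings were Arabidopsis thaliana of the accession Columbia-0 (Col-0), 10 days old, grown on MS plates with sucrose. Unstressed control seedlings were compared with seedlings kept at 38 °C for 6 h (heat), at 4 °C for 24 h (cold), in 250 mM sodium chloride for 6 h (salt) or left to dry in air for 1 h (drought). DNase-seq maps accessible chromatin by digesting nuclei with the nuclease DNase I, and FAIRE-seq by isolating the DNA of fixed tissue that is largely free of nucleosomes. A group had 3 libraries, or 2 for cold, which share 1 peak list, taken here as pooled from them. All groups are wild type, and the labels do not say whether libraries came from separate batches of seedlings.

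Jasmonates are lipid-derived hormones of wounding, insect attack, pollen development and growth restraint. In the resting state JAZ proteins bind MYC transcription factors and, through the adaptor NINJA or through a motif of their own, recruit the corepressor TOPLESS. The conjugate jasmonoyl-isoleucine joins JAZ proteins to the F-box protein COI1, which leads to their breakdown and releases the MYC factors. Many JAZ genes are themselves targets of MYC factors, so new repressor is made as the response runs.

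The 10 lists held between 45737 (drought) and 70807 peaks (control) in DNase-seq, and between 63060 (cold) and 92034 peaks (drought) in FAIRE-seq, and covered 12.7 to 21.5 Mb and 14.1 to 26.4 Mb. The lists give no read totals, so the depth behind a peak is unknown. No replicate error and no test can be given from 1 list per group, and each difference compares 2 lists rather than 2 conditions. The cold lists rest on fewer libraries than the others, and whether this moves a cold result was not tested. Fold enrichment is the authors' value over the local background and describes a peak within its own list. The percentage of the list that a peak outranks, by −log10 q, gives its place there. In whole seedlings, a site open in few cells and a site weakly open in many cannot be told apart. The summit of 47 of the 281 peaks (16.7%) lay inside a neighbouring protein-coding gene, 18 of them at JAZ1 in AT1G19190, 13 at JAZ6 in EDA25, 12 at JAZ12 and 4 at JAZ5.

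Across the 10 lists the JAZ genes fell into 7 with summits in every list and 3 with few. JAZ6 had 44 peaks, JAZ1 and JAZ5 had 43 each, JAZ2 and JAZ9 had 37 each, JAZ3 had 34 and JAZ12 had 29. JAZ10 had 6 peaks in 6 lists, JAZ7 had 5 in 5 lists and JAZ8 had 3 in 3 lists. JAZ7 and JAZ8 are the shortest members, at 923 and 990 bp, whereas JAZ10 at 2292 bp is longer than the median protein-coding gene (2078 bp). In control DNase-seq, 8 of the 10 genes had a summit, as did 94.7% of all protein-coding genes, and in control FAIRE-seq 9 of the 10 did, against 93.8%.

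**Figure D1:**
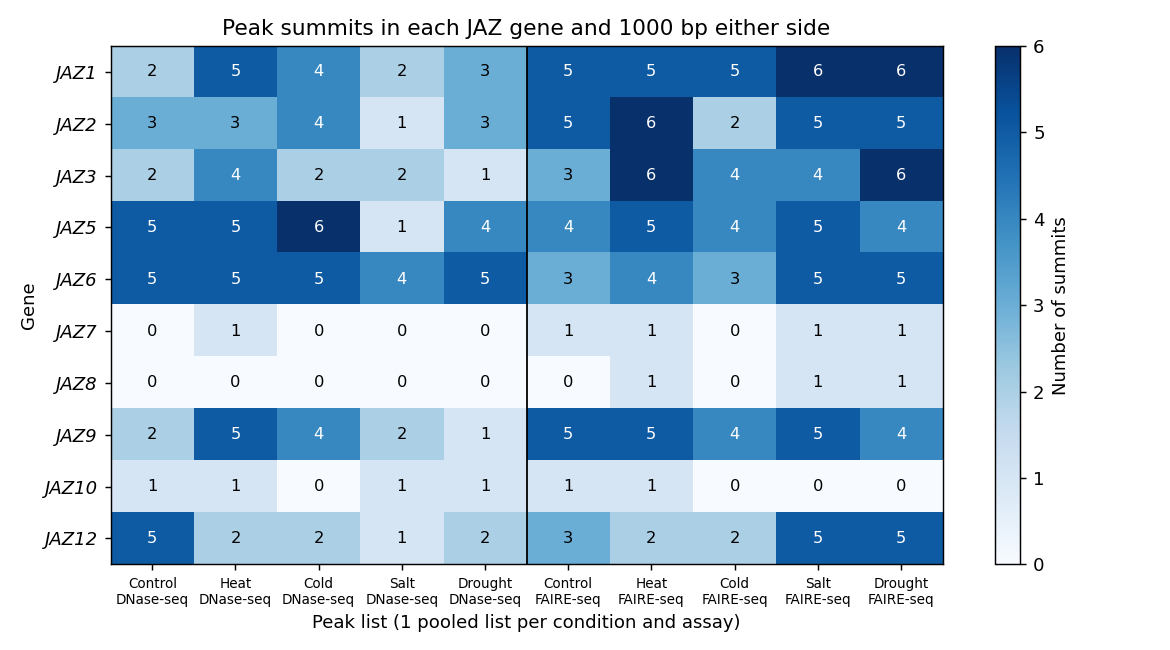
Number of peak summits in each JAZ gene and the 1000 bp on either side (rows) in each of the 10 pooled peak lists (columns, DNase-seq left of the line and FAIRE-seq right of it). JAZ7, JAZ8 and JAZ10 have 0 or 1 summit in every list, and the other 7 genes have between 1 and 6.

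Under salt, DNase-seq peaks were sparse at the JAZ genes. The members held 25 summits in the control DNase-seq list, and 31, 27, 14 and 20 in those of heat, cold, salt and drought. The mean per gene was 2.50, 3.10, 2.70, 1.40 and 2.00 in that order, and over all protein-coding genes it was 2.96, 2.69, 2.81, 2.26 and 1.97. The salt list thus had the fewest summits at the members, although the drought list was the shortest. Inside the genes control, salt and drought held 15, 10 and 12 summits, and in the flanks 10, 4 and 8. In FAIRE-seq the members held 30, 36, 24, 37 and 37 summits in control, heat, cold, salt and drought. The means were 3.00, 3.60, 2.40, 3.70 and 3.70 per gene, and over all genes they were 3.04, 3.58, 2.63, 3.76 and 3.85. Here the members stayed near all genes in each of the 5 lists.

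The covered share of the gene windows showed the same contrast. The median JAZ window was covered by DNase-seq peaks over 13.1% of its bases in control, and over 16.4%, 12.6%, 4.82% and 9.28% with heat, cold, salt and drought. The medians over all protein-coding genes were 20.4%, 18.8%, 16.8%, 16.1% and 11.5%. FAIRE-seq peaks covered a median of 16.4%, 21%, 13.9%, 23.7% and 23.4% of the JAZ windows, against 16.2%, 21.5%, 12.6%, 25% and 25.2% over all genes. JAZ1 was the most covered member in all 5 DNase-seq lists, between 29.8% and 37.4%, and JAZ8 was at 0% in all 5. Except under heat, much of the JAZ1 share lay under peaks with summits in the neighbour AT1G19190. In control, salt and drought that peak was 883, 874 and 904 bp wide, and the peak inside JAZ1 was 382, 352 and 137 bp wide. Heat and cold had narrower peaks in AT1G19190, of 126 to 485 bp. Under heat these were 257 and 126 bp wide, and the peaks inside JAZ1 were 249 and 507 bp wide.

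**Figure D2:**
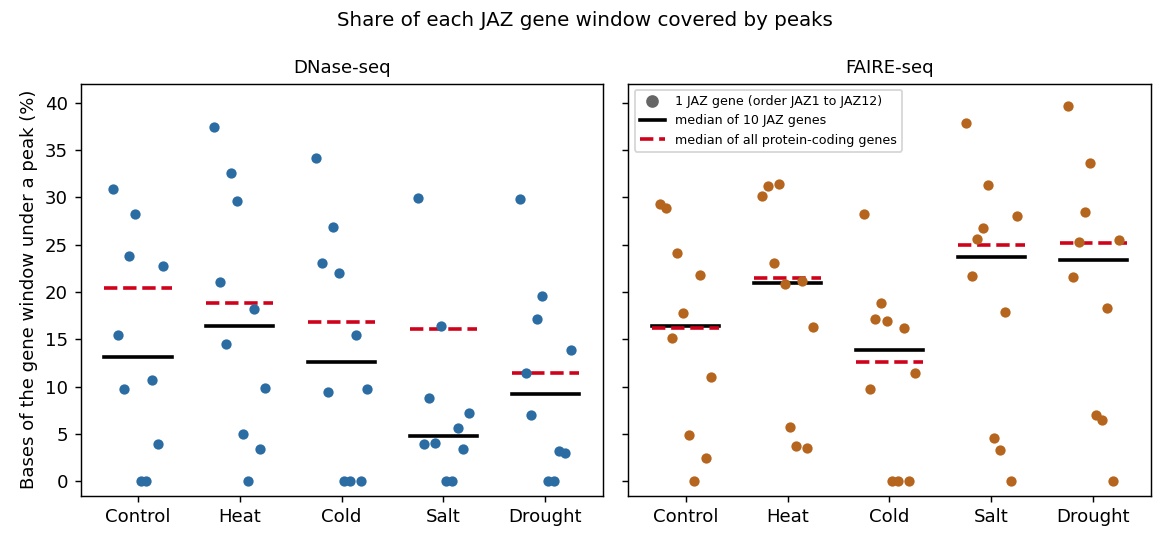
Percentage of the bases of each JAZ gene window (gene and 1000 bp on either side) that lie under a peak, by condition, with DNase-seq on the left and FAIRE-seq on the right. Points are the 10 genes, black bars their median and dashed red bars the median of all protein-coding genes. The DNase-seq medians of the JAZ genes lie below those of all genes in the 5 conditions and farthest below under salt (4.82% against 16.1%), whereas the FAIRE-seq medians lie near them.

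Merging peaks that share a base over the 10 lists gave 52 sites at the JAZ genes. Of these, 6 (11.5%, 95% Wilson interval 5.40 to 23.0) were present in all 10 lists, against 19.4% of all 109176 merged sites of the genome. The intervals cover counting error only. Sites seen by DNase-seq and never by FAIRE-seq numbered 11 (21.2%, 12.2 to 34.0; 10.6% of all sites), and sites seen by FAIRE-seq alone numbered 15 (28.8%, 18.3 to 42.3; 27.1% of all sites). The 6 sites in all 10 lists belonged to JAZ1 (2 sites), JAZ6 (2 sites), JAZ3 and JAZ12. Of the pair at JAZ1, that on chromosome 1 at 6622754 to 6623282 (TAIR10) lay within the gene, and the other, at 6623831 to 6624757, had its summits in the neighbour AT1G19190.

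JAZ3, also called JASMONATE-INSENSITIVE 3 after the mutant by which it was found, carried the site that outranked all other peaks of the members in 7 of the 10 lists. In control DNase-seq it stood below peaks of JAZ12 and JAZ6, in cold FAIRE-seq below a peak of JAZ6, and in salt DNase-seq it was level with a peak of JAZ12. Its summit lay 127 to 147 bp outside the lower-coordinate end of the gene in 9 of the lists and 236 bp outside it in heat DNase-seq, within chromosome 3 at 6119332 to 6119735. In DNase-seq the fold enrichment was 4.42 in control and 3.40, 4.52, 5.07 and 14.4 with heat, cold, salt and drought, and the peak outranked 82.4%, 93.8%, 97.9%, 87.8% and 99.3% of its list. In FAIRE-seq the values were 5.05, 4.76, 5.59, 5.19 and 4.28, and the peak outranked 99.4% to 99.9% of each list. The site was therefore among the strongest of every FAIRE-seq list, and in DNase-seq its place was lowest in control. Fold enrichments from different lists are not on a common scale, so the value of 14.4 is not a measure of change.

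JAZ12, whose protein interacts with the ubiquitin ligase KEG, had a DNase-seq peak inside the gene in all 5 lists, with the summit 214 to 224 bp from the lower-coordinate end. Its fold enrichment was 5.83 in control and 2.95, 3.47, 5.07 and 12.3 with heat, cold, salt and drought, and it outranked 98.6%, 86.3%, 89.6%, 87.8% and 97.1% of its list. The FAIRE-seq signal at this site was weaker and its summit moved between lists. In control and cold the summit lay 16 and 19 bp inside the gene, and under heat, salt and drought it lay 220, 232 and 224 bp inside, near the DNase-seq summit. The FAIRE-seq peaks there outranked 68.2% (control), 81.7% (heat), 32.0% (cold), 83.5% (salt) and 75.3% (drought) of their lists.

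JAZ6, a repressor with its own corepressor-binding motif, had a site inside the gene on chromosome 1 at 27274287 to 27274539 and another beyond its upper-coordinate end at 27276646 to 27277128 in all 10 lists. At the second site the FAIRE-seq peak outranked 99.1% of the list in control and 99.2%, 99.5%, 99.2% and 96.8% with heat, cold, salt and drought. The DNase-seq peak there outranked 33.1%, 85.4%, 96.6%, 1.77% and 68.4% in the same order. The salt DNase-seq peak was thus one of the weakest of its list at a site that stood high in the salt FAIRE-seq list.

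**Figure D3:**
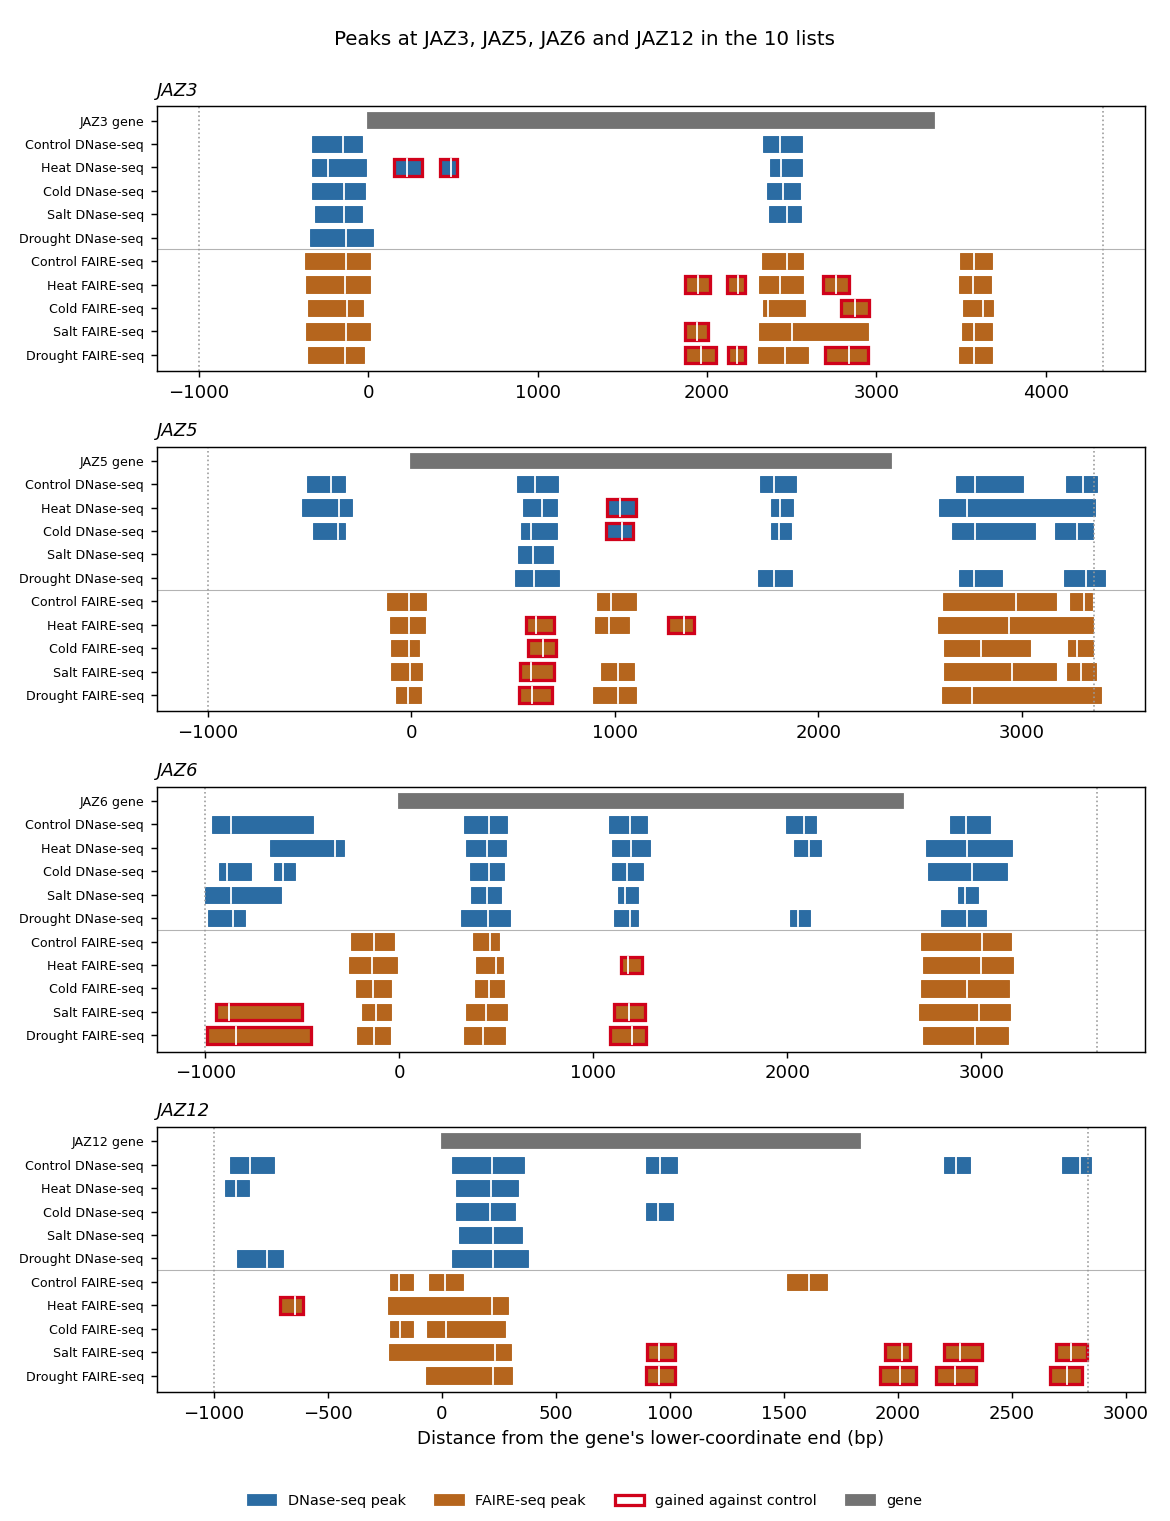
Peaks at JAZ3, JAZ5, JAZ6 and JAZ12 in the 10 lists, plotted by distance in bp from the lower-coordinate end of each gene (grey bar; the table gives no strand). Boxes are peaks with the summit as a white line, red outlines mark peaks that share no base with the control list of the assay, and dotted lines bound the 1000 bp flanks. The JAZ3 site just outside the lower end and the JAZ12 site 214 to 224 bp inside it in DNase-seq recur in every list, while FAIRE-seq peaks of salt and drought appear where control DNase-seq peaks lie at JAZ5, JAZ6 and JAZ12.

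Stress lists were then set against the control list of their assay. A difference between lists is one of called peaks and not a measure of chromatin opening or closing. Gained means a peak of the stress list that overlaps nothing in control, and lost means a control peak that overlaps nothing in the stress list. All 4 stresses use the same control list within an assay, so their results are not independent of each other.

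Heat gained DNase-seq peaks at 7 JAZ genes, JAZ1, JAZ2, JAZ3, JAZ5, JAZ7, JAZ9 and JAZ10, where 45% of all protein-coding genes had a gained peak. Of the 31 heat DNase-seq peaks at the members, 13 were gained (41.9%, 26.4 to 59.2), against 24.1% of the whole list. Cold did so at 4 genes, JAZ1, JAZ2, JAZ5 and JAZ9, against 28.2% of all genes, with 7 of 27 peaks gained (25.9%, 13.2 to 44.7) and 12.0% in the whole list. Peaks at the same gene are not independent, and no test of these shares was made. With the window narrowed to 500 bp on either side, cold gained DNase-seq peaks at 2 of the genes, JAZ5 and JAZ9, against 22.9% of all genes.

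At JAZ1, one of the repressors through which the breakdown by COI1 was discovered, a gained DNase-seq peak lay at 6620628 to 6621094 on chromosome 1 under heat, at 6620729 to 6621097 under cold and at 6620940 to 6621123 under drought. Its summit was 733, 940 and 727 bp outside the lower-coordinate end, and its fold enrichment was 2.07, 2.32 and 4.14. The control and salt DNase-seq lists had no peak there. FAIRE-seq had a peak at this place in all 5 lists, with fold enrichments of 3.66 in control and 3.49, 4.07, 3.07 and 2.71 with heat, cold, salt and drought, and the control peak outranked 97.7% of its list. The stress peaks in DNase-seq thus lay on a site that FAIRE-seq listed in unstressed seedlings.

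JAZ2, which acts in guard cells in the control of stomata by a bacterial jasmonate mimic, showed this on both flanks. Below its lower-coordinate end, gained DNase-seq peaks had their summits 576 bp (heat) and 552 bp (cold) outside the gene, with fold enrichments of 2.12 and 2.50. Beyond the upper-coordinate end the summits lay 843 and 836 bp outside, with fold enrichments of 2.61 and 2.55, and the heat peak outranked 82.8% of its list. FAIRE-seq had its strongest JAZ2 peak at this upper site in every list, where it outranked 97.1% of the list in control and 96.8%, 96.9%, 99.0% and 96.5% with heat, cold, salt and drought. Inside the gene, heat lost the control DNase-seq peaks with summits 331 and 671 bp from the lower end, and cold lost that at 671 bp.

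JAZ9, a repressor that also binds the growth-restraining DELLA protein RGA, gained 4 DNase-seq peaks under heat and 3 under cold. Under heat the summits lay 104, 358 and 934 bp inside the lower end and 367 bp outside the upper end, and under cold they lay 114 and 415 bp inside and 323 bp outside. They were weak: the heat peaks outranked 0.675% to 36.6% of the list and the cold peaks 9.18% to 30.3%. The first place and that beyond the upper end carried FAIRE-seq peaks in all 5 lists, and the stronger of these, beyond the upper end, outranked 98.6% of the heat FAIRE-seq list. Heat and cold both lost the control DNase-seq peak at 26655788 to 26656043 on chromosome 1, which remained in the salt and drought lists. JAZ5, the closest relative of JAZ6, gained 1 DNase-seq peak in each list, with summits 1028 bp (heat) and 1038 bp (cold) inside the gene and fold enrichments of 1.90 in both.

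**Figure D4:**
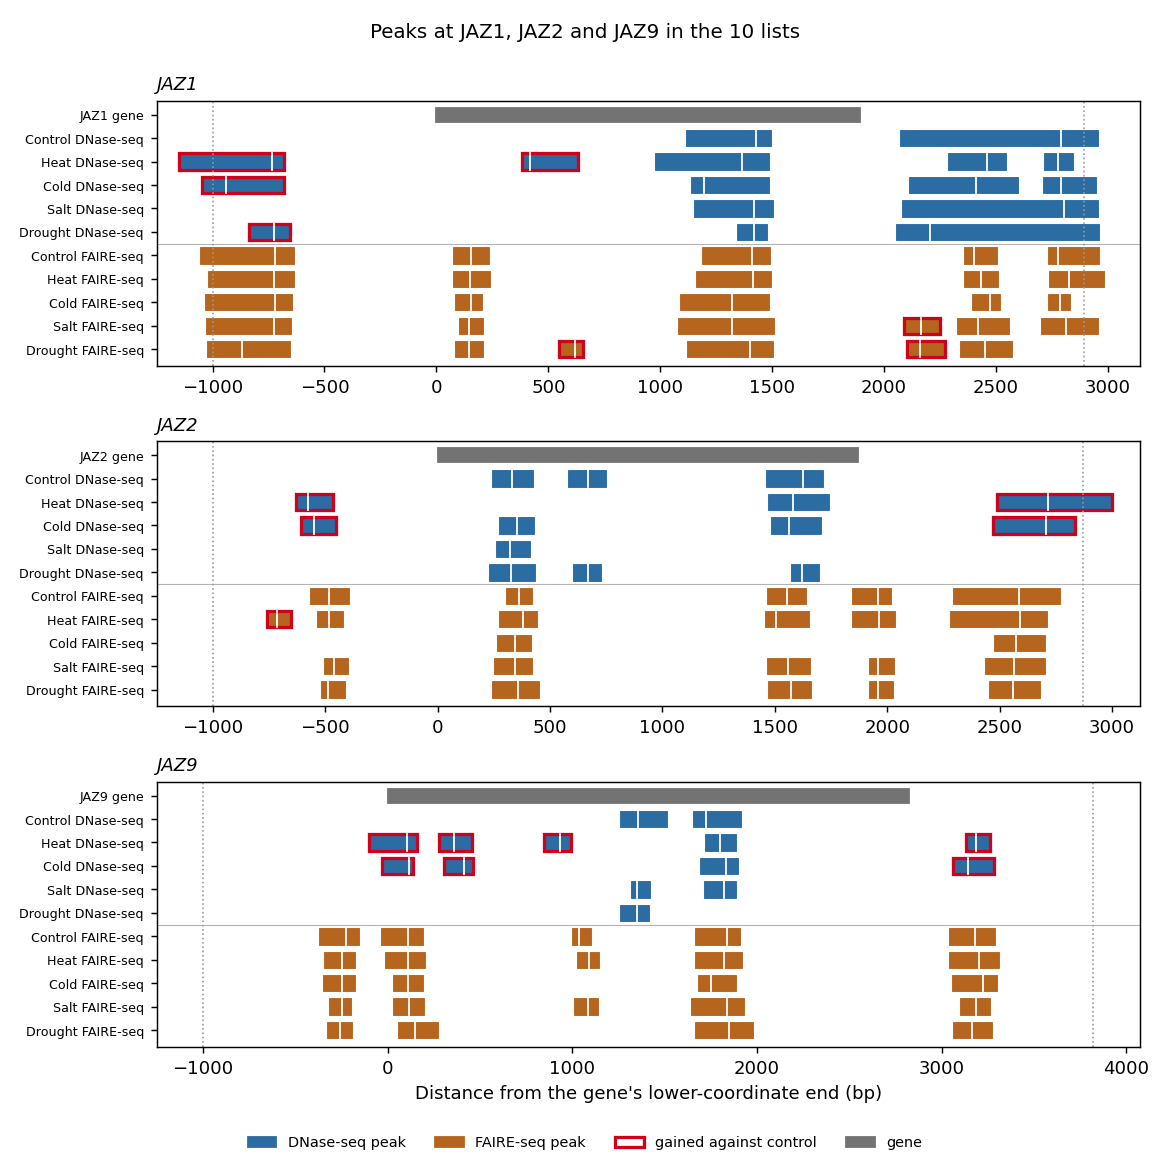
Peaks at JAZ1, JAZ2 and JAZ9 in the 10 lists, plotted by distance in bp from the lower-coordinate end of each gene (grey bar). Boxes are peaks with the summit as a white line, red outlines mark peaks that share no base with the control list of the assay, and dotted lines bound the 1000 bp flanks. Gained DNase-seq peaks of heat and cold sit below the lower ends of JAZ1 and JAZ2 and above the upper ends of JAZ2 and JAZ9, at places where FAIRE-seq peaks stand in control.

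Of the 13 DNase-seq peaks gained under heat at the members, 7 shared a base with a control FAIRE-seq peak, and of the 7 gained under cold 6 did. Over the whole lists the shares were 57.7% for heat and 71.3% for cold. The heat count is near its background and the cold count rests on few peaks. This comparison was chosen after the peaks were seen.

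Salt gained a DNase-seq peak at 0 of the 10 JAZ genes, against 3.21% of all genes, and drought at 1, JAZ1, against 3.36%. In lists shortened to equal length, drought gained DNase-seq peaks at 4 genes, JAZ1, JAZ5, JAZ6 and JAZ12, against 12.6% of all genes. At JAZ5, JAZ6 and JAZ12 these peaks overlap weak peaks of the full control list that the shortened control list left out. Salt lost DNase-seq peaks at JAZ2, JAZ5, JAZ6 and JAZ12, which is 4 of the 10 genes against 48.2% of all genes. The losses were concentrated: 11 of the 25 control DNase-seq peaks at the members were lost (44.0%, 26.7 to 62.9), against 22.4% of the control list, and 8 of the 11 belonged to JAZ5 and JAZ12. JAZ5 went from 5 control peaks to 1 under salt, which had its summit 601 bp inside the gene and a fold enrichment of 3.14. JAZ12 went from 5 to 1, its peak 224 bp inside the gene. JAZ2 lost the peaks at 671 and 1625 bp and JAZ6 that at 2086 bp. At JAZ12, 3 of the 4 lost peaks had their summits in a neighbouring gene.

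Heat lost DNase-seq peaks at JAZ2, JAZ9, JAZ10 and JAZ12 (4 of 10, against 53.8% of all genes). Cold lost them at JAZ2, JAZ6, JAZ9, JAZ10 and JAZ12 (5 of 10, against 42.2%), and drought at JAZ3, JAZ5, JAZ9 and JAZ12 (4 of 10, against 62.1%). Where at least 50% of a peak had to be covered, drought lost them at 7 genes, against 68.4% of all genes. In lists of equal length, drought lost them at 4 genes against 27.7% and salt at 6 against 24.6%, so these counts stood below the share of all genes in the full lists and above it in the shortened ones. The salt count there includes JAZ3 and JAZ9, whose weak salt peaks were left out of the shortened list. JAZ12 had a lost DNase-seq peak under all 4 stresses, but under cold its lost peaks all had their summits in neighbouring genes, and JAZ12 was not called with these left out, in the gene body alone or in lists of equal length. The drought call at JAZ5 likewise rests on a summit in UBP1B. The pair of JAZ12 control peaks beyond the upper-coordinate end, with summits 422 and 965 bp outside the gene and inside AIP2, was absent from all 4 stress lists. Both were weak in control, where they outranked 5.77% and 34.8% of the list.

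In FAIRE-seq, salt gained peaks at 6 genes, JAZ1, JAZ3, JAZ5, JAZ6, JAZ8 and JAZ12, against 64.1% of all genes. For drought the 6 genes were also JAZ1, JAZ3, JAZ5, JAZ6, JAZ8 and JAZ12, against 65.4%. Salt gained 10 of 37 FAIRE-seq peaks at the members (27.0%, 15.4 to 43.0; 34.9% of the list) and drought 13 of 37 (35.1%, 21.8 to 51.2; 33.9% of the list). These shares lie near or below the background. Heat gained FAIRE-seq peaks at JAZ2, JAZ3, JAZ5, JAZ6, JAZ8 and JAZ12 (6 of 10, against 54.9%), with 9 of 36 peaks gained (25%; 24.8% of the list). Cold gained them at JAZ3 and JAZ5 (2 of 10, against 31.8%). The salt call at JAZ1 and the heat call at JAZ12 each rest on a summit in a neighbouring gene, AT1G19190 and AT5G20890.

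Of the gained FAIRE-seq peaks at the members, 7 of 10 (salt) and 7 of 13 (drought) shared a base with a control DNase-seq peak, which is near the 59.9% and 55.9% of the whole lists. For heat 2 of 9 did, against 52.0%, and for cold 1 of 2, against 55.8%. This comparison too was chosen after the peaks were seen. At JAZ6 the salt peak at 27273022 to 27273464 and the drought peak at 27272980 to 27273511 overlapped the control DNase-seq peak at 27273004 to 27273522, with fold enrichments of 2.29 and 1.86, in the neighbour EDA25. A second JAZ6 site, with summits 1182 bp (salt) and 1201 bp (drought) inside the gene, had FAIRE-seq fold enrichments of 3.01 and 2.54 and a control DNase-seq fold enrichment of 3.64. At JAZ5 a FAIRE-seq peak absent from control appeared under all 4 stresses, with summits 590 to 647 bp inside the gene. Its fold enrichment was 1.96, 2.33, 2.74 and 2.39 with heat, cold, salt and drought. DNase-seq listed this place in all 5 conditions.

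At JAZ12, salt and drought each gained 4 FAIRE-seq peaks, and 3 of the 4 places had a control DNase-seq peak that the stress DNase-seq list had lost. Their summits under salt lay 955 bp from the lower-coordinate end, inside the gene, and 185, 438 and 926 bp beyond the upper end in AIP2, an E3 ligase gene of abscisic acid signalling. The peak at 185 bp was the one without a control DNase-seq counterpart. The assays thus went opposite ways at these places, where DNase-seq listed the control and FAIRE-seq listed the stress. In JAZ3, by contrast, the 2 FAIRE-seq sites gained nearest the middle of the gene, with summits 1940 to 1964 bp and 2177 to 2181 bp from the lower end, had no DNase-seq peak in any list. The first appeared under heat, salt and drought and the second under heat and drought.

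Cold lost FAIRE-seq peaks at 6 JAZ genes, JAZ2, JAZ5, JAZ7, JAZ9, JAZ10 and JAZ12, against 56.9% of all genes. Of the 30 control FAIRE-seq peaks at the members, 8 were lost (26.7%, 14.2 to 44.4), against 29.0% of the list. JAZ2 lost 3 of its 5, with summits 483 bp below the gene, 1554 bp from the lower end and 89 bp beyond the upper end. In all 3 cases the control peak was of middling rank, outranking 46.2%, 52.8% and 33.2% of the list. Heat lost a FAIRE-seq peak at JAZ12 alone (1 of 10, against 20.1%), salt at JAZ10 and JAZ12 (against 30.7%) and drought at JAZ9, JAZ10 and JAZ12 (against 25.5%). The JAZ12 peak at 7092219 to 7092391 on chromosome 5 was in the control FAIRE-seq list and in none of the 4 stress lists.

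Both assays gained a peak at JAZ2, JAZ3 and JAZ5 under heat (3 of 10, against 27.5% of all genes), at JAZ5 under cold (against 10.5%), at none under salt (2.5%) and at JAZ1 under drought (2.4%). Both assays lost a peak at JAZ12 under heat (12.1% of all genes), at JAZ2, JAZ9, JAZ10 and JAZ12 under cold (4 of 10, against 26.1%), at JAZ12 under salt (15.9%) and at JAZ9 and JAZ12 under drought (16.3%). The peaks of the 2 assays need not lie at the same place. The heat FAIRE-seq gain at JAZ2 rests on a peak that outranked 4.44% of its list. The cold FAIRE-seq loss at JAZ10 rests on a control peak that outranked 3.48%. Neither call was made at a −log10 q of at least 5 or in lists of equal length. The cold DNase-seq gain at JAZ5 was not called at that threshold, nor the drought FAIRE-seq gain at JAZ1 in lists of equal length. Within an assay, heat both gained and lost DNase-seq peaks at JAZ2, JAZ9 and JAZ10 (3 of 10, against 23.3% of all genes). In the other 7 comparisons this held for 0 to 2 members, against 1.62% to 20.6% of all genes.

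JAZ7, JAZ8 and JAZ10 stood apart by how little was listed at them. JAZ7 and JAZ8 belong to the short TIFY5 type, and JAZ8 lacks the canonical sequence that COI1 recognises, so it resists breakdown. JAZ7 had 1 place, at its lower-coordinate end, within 14573009 to 14573219 on chromosome 2. FAIRE-seq listed it in control, heat, salt and drought with fold enrichments of 1.98, 2.61, 2.60 and 2.32, and cold had no peak there. DNase-seq listed it under heat, with a fold enrichment of 2.16 and outranking 63.0% of the list, and in no other condition. JAZ8 likewise had 1 place, at 10596284 to 10596477 on chromosome 1 across its lower-coordinate end. It appeared in FAIRE-seq under heat, salt and drought, with fold enrichments of 2.00, 2.28 and 2.50, outranking 23.4%, 28.6% and 64.5% of the list. The control and cold FAIRE-seq lists and all 5 DNase-seq lists had no peak at JAZ8. JAZ8 was the member with no control peak in either assay.

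JAZ10, known for splice forms that resist breakdown and dampen the response, had a DNase-seq peak with its summit 488 bp inside the gene in control, 497 bp under salt and 476 bp under drought. Fold enrichments were 2.56, 2.50 and 3.30, and heat and cold had no peak there. Heat instead had a weak DNase-seq peak 380 bp beyond the upper-coordinate end, outranking 10.3% of the list. FAIRE-seq listed a place 1719 bp (control) and 1710 bp (heat) from the lower end, with fold enrichments of 1.68 and 2.11, and the control peak outranked 3.48% of its list. Under cold JAZ10 had no peak in either assay, as was the case for JAZ7 and JAZ8.

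**Figure D5:**
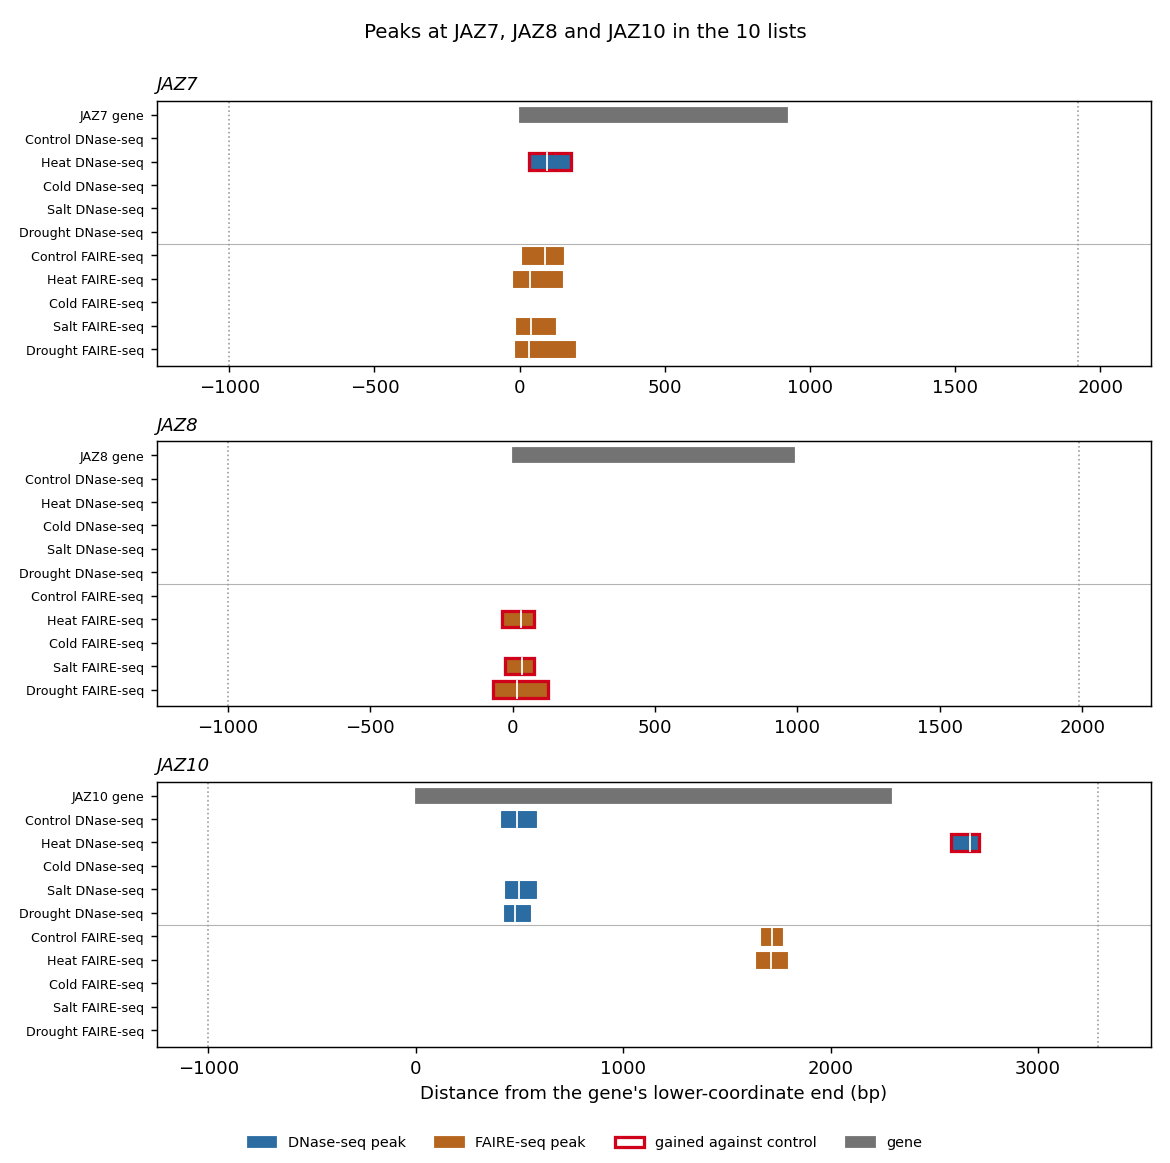
Peaks at JAZ7, JAZ8 and JAZ10 in the 10 lists, plotted by distance in bp from the lower-coordinate end of each gene (grey bar). Boxes are peaks with the summit as a white line, red outlines mark peaks that share no base with the control list of the assay, and dotted lines bound the 1000 bp flanks. JAZ7 and JAZ8 show 1 place at the lower end, and none of the 3 genes has a peak in either cold list.

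The match between the 2 assays was counted as DNase-seq peaks that overlap a FAIRE-seq peak of the same condition. In control, 12 of the 25 DNase-seq peaks at the members shared a base with a FAIRE-seq peak (48.0%, 30.0 to 66.5), where 60.3% of the whole list did. The share was 20 of 31 under heat (64.5%, 46.9 to 78.9; 82.2% of the list), 17 of 27 under cold (63.0%, 44.2 to 78.5; 65.3%), 12 of 14 under salt (85.7%, 60.1 to 96.0; 89.5%) and 14 of 20 under drought (70.0%, 48.1 to 85.5; 86.4%). On this side control was lowest and salt highest, as in the whole lists. Counted from the FAIRE-seq side, the shares were 43.3% in control and 55.6%, 70.8%, 37.8% and 37.8% with heat, cold, salt and drought, where the whole lists had 63.5%, 58.0%, 69.9%, 56.8% and 42.1%, so the members' shares were lowest with salt and drought. The intervals of control and each stress overlap on both sides.

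Among 49 other jasmonate pathway genes, heat gained a DNase-seq peak at 20 and a FAIRE-seq peak at 24, cold at 11 and 12, salt at 0 and 28, and drought at 2 and 32. Lost peaks were found at 24 genes in DNase-seq and 10 in FAIRE-seq under heat, at 17 and 35 under cold, at 18 and 16 under salt and at 20 and 13 under drought. Against the shares of all genes given above, the count farthest above was the loss of FAIRE-seq peaks under cold (35 of 49, against 56.9%), and the count farthest below was the loss of DNase-seq peaks under drought (20 of 49, against 62.1%). By class, cold lost FAIRE-seq peaks at 11 of 14 synthesis genes, 8 of 11 transcription factor genes, 6 of 10 breakdown genes, 3 of 5 response genes, 2 of 3 genes of perception and corepression and 5 of 6 other JAZ and TIFY genes.

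Of the genes gained or lost in both assays, 4 are described here, chosen after their values were seen. LOX2, a chloroplast lipoxygenase at the start of the pathway, lost the same pair of control peaks under heat, salt and drought, at 16527756 to 16527903 on chromosome 3 in DNase-seq and at 16525079 to 16525222 in FAIRE-seq. The FAIRE-seq peak outranked 92.1% of the control list and the DNase-seq peak 57.0%. Under cold LOX2 both gained and lost peaks in both assays. LOX6, another lipoxygenase, lost peaks in both assays under all 4 stresses. The lost DNase-seq peaks outranked 7.99% and 19.5% of the control list, and the lost FAIRE-seq peaks 43.4% and 81.0%. MYC2, the master transcription factor that JAZ proteins repress, lost a DNase-seq peak (fold enrichment 2.24) and a FAIRE-seq peak (1.77) under salt. These outranked 31.6% and 5.23% of their control lists. AOC3, an allene oxide cyclase, gained peaks on chromosome 3 under heat, where the DNase-seq peak (9409334 to 9409599, fold enrichment 3.01) held the whole FAIRE-seq peak (9409465 to 9409578, 1.76). These heat peaks outranked 81.6% (DNase-seq) and 4.5% (FAIRE-seq) of their lists. Under cold the DNase-seq and FAIRE-seq peaks of AOC3 lay at 9409372 to 9409554 (2.54) and 9409404 to 9409503 (2.42). Under salt AOC3 lost a DNase-seq peak at 9411667 to 9411807 and a FAIRE-seq peak at 9408362 to 9408461, the second of which counts for its neighbour AOC2 too.

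Among these 49 genes, the covered share over the 10 lists was most like the mean of the JAZ genes at PPD2, a TIFY relative that restrains leaf growth, at AOC1, an allene oxide cyclase, and at JOX2, a jasmonate hydroxylase. Their mean absolute differences from the JAZ mean were 3.07, 3.37 and 3.43 percentage points, whereas the median over all protein-coding genes was 7.74. The JAZ genes themselves lay between 3.31 (JAZ9) and 17.7 points (JAZ1) from their own mean, so JAZ1, JAZ5, JAZ6, JAZ7, JAZ8 and JAZ10 lay farther from it than the median gene.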

How the data were processed

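Reads were single-end, per the labels' protocols. The submitters' processing notes list FastQC, Bowtie2, SAMtools, MACS2 and TAIR10 but no versions. Pooling of replicates, the background library, duplicate removal and any cut site shift or extension of reads, which would move DNase-seq summits, were not stated in those sources. For each peak the deposited lists give a fold enrichment over local background (a ratio) and −log10 of the p-value and q-value. The deposited p-value and score were left unused. Other deposited values place each summit as a distance in bases from the start of its peak. The 5 RNA samples were not analysed here.

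Gene positions came from RefSeq (TAIR10.1, no strand). As a check of the 2 sources, strong control DNase-seq summits were sparse within 100 bp outside gene ends on all 5 chromosomes. Their relative density was 0.0245 to 0.0787 there, and it peaked at 2.66 to 3.1 some 250 to 350 bp to the other side of the gene end. The cause of this placement was not tested. Promoter motifs were not searched. Python 3.11.15, numpy 2.4.6, pandas 2.3.3 and scipy 1.17.1 were used, and the counting steps were tested on simulated data. Members and lists were chosen with earlier results of these data known. Pathway genes were named if gained or lost in both assays under a stress (up to 8 per stress, some given in the text) or if among the 3 most like the members. Alternatives changed the threshold, list length, window and overlap, and 1, chosen after seeing the data, left out summits in neighbouring genes.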

Additional observations from a re-analysis of the deposited data

How the results depend on the processing

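No paired analysis was possible because each group has 1 pooled list, so replicate numbers carry no values and no library could be left out. Counts of genes stayed within 1.5 times under a −log10 q of at least 5, except that salt FAIRE-seq lost peaks at 1 gene (25.5% of all genes). The genes behind the counts changed, however. FAIRE-seq gains were then at JAZ1, JAZ3, JAZ5, JAZ8, JAZ10 and JAZ12 under heat and at JAZ1 and JAZ5 under cold. JAZ10 left the FAIRE-seq losses of cold, salt and drought and the DNase-seq gains of heat. JAZ5 moved from the DNase-seq gains of cold to its losses. In lists of equal length (45737 DNase-seq and 63060 FAIRE-seq peaks), drought gained DNase-seq peaks at 4 genes (12.6% of all genes) and heat lost FAIRE-seq peaks at 3 (30.5%). There the shares of all genes with a DNase-seq loss under salt and drought were 24.6% and 27.7%, and the members, at 6 and 4, moved from below to above them. The 4 drought gains include places where a weaker control peak was left out of the shortened list. The 6 salt losses include JAZ3 and JAZ9, where salt peaks that outranked 6.74% to 13.9% of the full list were left out. Cold gained DNase-seq peaks at 2 genes and drought at 0 with windows of 500 bp (22.9% and 2.67% of all genes) and with the gene body alone (15.9% and 1.13%). With at least 50% of a peak covered, drought lost DNase-seq peaks at 7 genes (68.4%). With summits within 150 bp, heat lost FAIRE-seq peaks at 2 (40.4%). Leaving out summits in neighbouring protein-coding genes kept all counts within 1.5 times, but some calls dropped out. JAZ12 (cold) and JAZ5 (drought) were no longer among the DNase-seq losses, nor JAZ12 (heat) and JAZ1 (salt) among the FAIRE-seq gains. The covered percentage of all JAZ windows together, 15.2, 18.0, 14.8, 8.35 and 10.9 in DNase-seq and 16.3, 19.6, 12.7, 20.7 and 21.4 in FAIRE-seq (control, heat, cold, salt, drought), moved beyond its binomial interval over bases, which are not independent, in 7, 8 and 5 of the 10 lists under the 3 settings that follow. With a −log10 q of at least 5 it was 17.4 (heat) and 12.7 (cold) in DNase-seq and 14.9, 18.3, 11.4, 20.2 and 21 in FAIRE-seq. In lists of equal length it was 12.4, 17.4, 11 and 6.97 (control to salt) in DNase-seq and 15.6, 17.3, 18.8 and 17.5 (control, heat, salt, drought) in FAIRE-seq. With windows of 500 bp it was 17.4, 13.4 and 10.3 (heat, cold, drought) in DNase-seq and 20.2 and 13.1 (heat, cold) in FAIRE-seq. Salt stayed the lowest DNase-seq condition in all 3. Within the gene body alone the members held 15, 18, 14, 10 and 12 DNase-seq summits (control, heat, cold, salt, drought) and 14, 20, 10, 17 and 19 FAIRE-seq summits. The cause of these shifts was not tested, except that shorter lists and smaller windows hold fewer peaks.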
